A study of Mus musculus with 27 samples.

Results

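The genes described are 10 members of the fibroblast growth factor (FGF) system, the 4 receptors Fgfr1, Fgfr2, Fgfr3 and Fgfr4 and the 6 ligands Fgf1, Fgf2, Fgf7, Fgf9, Fgf10 and Fgf18. They were taken by symbol from 30153 genes in a table of RNA-seq normalized counts, and all 10 symbols were found. The libraries came from mice that carry Prx1-CreER, a tamoxifen-inducible Cre driven by the promoter of the limb mesenchyme gene Prrx1, the Ai14 reporter, which makes cells and their descendants red (tdTomato) once Cre has acted, and a deletion of Rag1, which removes mature lymphocytes. Mice of both sexes, 8 to 12 weeks old, received 2 doses of tamoxifen 48 hours apart and were harvested 3 days after the last. Hindlimb muscle was digested for 60 minutes, periosteum (the sheet on the outer face of bone) was scraped and digested for 20 minutes, and bone marrow was flushed without digestion. From each tissue, tdTomato+ cells without the blood cell protein CD45 were sorted by CD105 and CD200: cells without CD105 made up P1 where they carried CD200 and P2 where they did not, and P3 took the CD105+ cells with or without CD200, giving 9 groups of 3 libraries, 27 in all. The Prx1-CreER, Ai14 and Rag1 alleles, the tamoxifen and the CD45- gate were shared by all 9 groups. The labels do not tie a library to an animal, so p-values measure the spread between these libraries. For each gene that spread was estimated once over all 9 groups, not from the groups compared alone.

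FGFs are secreted proteins that, held by heparan sulfate chains, bind tyrosine kinase receptors on the same or on neighbouring cells and signal through the adaptor Frs2 to the Ras and ERK pathway. In bone, Fgfr1 and Fgfr2 act in osteoblast precursors and Fgfr3 restrains growth plate chondrocytes, while Fgf9 and Fgf18 come from perichondrium and nearby mesenchyme. In muscle, Fgfr1 and Fgfr4 are receptors of satellite cells, the muscle stem cells. Fgf7 and Fgf10 are mesenchymal ligands best known for acting on a splice form of Fgfr2 that epithelia make, Fgf1 binds all the receptors, and Fgf2 is a growth factor of cultured mesenchymal cells. The table holds a value per gene, so splice forms of a receptor cannot be told apart.

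Promoter sequence is shown for Fgf18 and Fgf7, whose windows alone among those found ended before the annotated start of the gene (GENCODE M21). Both ligands were also higher in P1 than in P2 cells of the periosteum in limma's test with all 27 libraries. With only those groups fitted, neither passed (adjusted p = 0.175 for Fgf18 and 0.234 for Fgf7). Each line gives the 250 bases before the start of the gene, 5′ to 3′ on the gene's strand, from RefSeq (GRCm38.p6), with every CpG (a C followed by a G) in capitals.
Fgf18, chr11:33147401-33147650, minus strand: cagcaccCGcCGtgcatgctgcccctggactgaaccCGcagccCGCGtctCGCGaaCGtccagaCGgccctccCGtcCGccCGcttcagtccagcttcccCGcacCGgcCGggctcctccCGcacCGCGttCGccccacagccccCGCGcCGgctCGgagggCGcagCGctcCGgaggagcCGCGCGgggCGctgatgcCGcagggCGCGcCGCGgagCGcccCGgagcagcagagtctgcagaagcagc
Fgf7, chr2:126034408-126034657, plus strand: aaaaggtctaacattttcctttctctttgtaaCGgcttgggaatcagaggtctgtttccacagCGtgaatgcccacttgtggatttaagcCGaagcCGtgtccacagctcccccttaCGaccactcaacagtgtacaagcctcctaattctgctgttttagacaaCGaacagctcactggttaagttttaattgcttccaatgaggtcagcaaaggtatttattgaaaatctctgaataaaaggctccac
The Fgf18 window held 37 CpGs, and 98.1% of 32851 mouse promoter windows of that length held no more than that. The Fgf7 window held 6, which is the median of all windows. Windows were found for 8 of the 10 members, and those of the others held from 2 CpGs (Fgfr2) to 24 (1 of the 2 Fgfr3 windows). The windows of the others reached into the annotated gene, so their counts are not like for like. No methylation or binding was measured in these libraries, so these counts describe the sequence only. Fgf18 ran from 0 in every bone marrow P1 library to 1317 in a periosteum P1 library, and Fgf7 from 2.35 to 1460.

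The sums of normalized counts ran from 8631881 to 26230908 per library (median 13708376), and 12396 to 21675 genes were above 0. The log2 values of libraries of the same group had a Pearson r of 0.862 to 0.955 for muscle, 0.631 to 0.827 for periosteum and 0.767 to 0.935 for bone marrow. The sorting genes followed the gates in part: Eng (CD105) lay between 774 and 7328 in the P3 libraries and at or below 569 in all others, and Cd200 lay between 1025 and 7515 in P1 and at or below 72.6 in every P2 library but muscle P2 replicate 2, with 1107. Markers of blood, myofibre, endothelial, cartilage and bone cells were high in some groups. Globin transcripts made up 24.1%, 38.6% and 32.1% of the sums in periosteum P2 and 44.2%, 47.3% and 44.4% in bone marrow P2, against at most 4.28% in the other 7 groups. All 10 myofibre markers were at 10 or more in each muscle P2 library, with a summed level of 2001150 to 2246470. The 8 endothelial markers summed to between 19223 and 56144 in muscle P3 and periosteum P3, against at most 14303 elsewhere. Chondrocyte markers summed to 375579 to 832598 in periosteum P2, 89271 to 513599 in periosteum P1 and 156430 to 247348 in bone marrow P1. No muscle library exceeded 22125. Leukocyte markers summed to 40925 to 229410 in bone marrow P2 and 18363 to 64533 in bone marrow P1, despite the CD45- gate. Osteoblast markers summed to 3128070 to 5248390 in bone marrow P1 and 760000 to 1534440 in periosteum P1. In such bulk libraries, fewer cells of a type and less RNA per cell cannot be told apart.

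Fgfr1 encodes the main FGF receptor of mesenchymal cells (GENCODE M21, GRCm38, chr8:25513654-25575718). Fgfr1 was high in the P1 cells of all 3 tissues, with 4390, 4327 and 4319 normalized counts for muscle, 4344, 3953 and 5361 for periosteum and 5685, 6550 and 5213 for bone marrow. In P3 it was at 566, 1784 and 1764 for muscle, 1483, 1852 and 960 for periosteum and 548, 280 and 200 for bone marrow. P1 was above P3 in every library of each tissue. In P2 it was at 1245, 1582 and 729 for muscle, 2536, 2670 and 2531 for periosteum and 209, 29.5 and 195 for bone marrow, again with no P2 library reaching its tissue's P1. The group means ran from bone marrow P1 through periosteum P1 and muscle P1 down to bone marrow P3 and, lowest, bone marrow P2. The libraries of periosteum P1 overlapped with those of both neighbours in that order, and those of bone marrow P1 and muscle P1 did not overlap. The bone marrow held both ends of that order. There, P1 exceeded P2 by 5.75 ± 0.56 on the log2 scale (± the standard error, limma's test on log2(normalized count + 1), Benjamini-Hochberg adjusted p = 4.88e-08) and P3 by 4.20 ± 0.56 (adjusted p = 2.25e-05). Globin transcripts were high in the bone marrow P2 libraries, and their part in the difference from P2 was not tested. In periosteum P1 exceeded P2 by 0.81 ± 0.56, which did not pass (adjusted p = 0.327). In muscle P1 exceeded P2 by 1.94 ± 0.56 (adjusted p = 0.0294). That call ended without any 1 of the 3 muscle P1 libraries or of muscle P2 replicates 1 and 3 (adjusted p 0.0612 to 0.133). In muscle the excess over P3 of 1.84 ± 0.56 (adjusted p = 0.206) and in periosteum that of 1.71 ± 0.56 (adjusted p = 0.0898) did not pass. Without bone marrow P2 replicate 2, where Fgfr1 was lowest of all libraries, both did (adjusted p = 0.0429 and 0.0191). Between the P1 cells of the 3 tissues no difference passed: muscle against periosteum was −0.06 ± 0.56 and muscle against bone marrow −0.41 ± 0.56.

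Fgfr2, the receptor of osteoblast precursors (chr7:130162451-133123350, where 1 long annotated transcript runs into Ctbp2 and shares 314 exon bases with it), had its highest group means in bone marrow P1 and periosteum P1. Periosteum P1 held 3014, 715 and 2997 and bone marrow P1 held 2276, 2617 and 2903, while muscle P1 held 249, 279 and 456. The muscle P1 libraries lay below all 6 of these. Periosteum P2 was split, with 3307 and 2287 in replicates 2 and 3 and 0.9 in replicate 1. Bone marrow P3 was split as well, with 1698 in replicate 1 and 230 and 194 in the others. Periosteum P3 held 433, 420 and 535, bone marrow P2 held 137, 146 and 181, muscle P3 held 52.7, 159 and 159, and muscle P2 held 42.7, 52.3 and 65.7. With all 27 libraries, no comparison of Fgfr2 passed. Its muscle against periosteum difference was −2.26 ± 0.92 (adjusted p = 0.0748) and its bone marrow P1 against P2 difference 4.06 ± 1.60 (adjusted p = 0.0507). These calls moved with the settings. The bone marrow P1 against P2 difference passed with a pseudocount of 5 (adjusted p = 0.023), after rescaling (adjusted p = 0.0407), after quantile normalization (adjusted p = 0.0289), when only those groups were fitted (adjusted p = 0.000307) and without periosteum P2 replicate 2 or 3 (adjusted p = 0.027 and 0.0346). Muscle against periosteum passed with a pseudocount of 5 (adjusted p = 0.0293) and after quantile normalization (adjusted p = 0.0262), and with P1 and P3 only it was −2.30 (adjusted p = 0.202). Muscle against bone marrow passed with a pseudocount of 5 (adjusted p = 0.0438), after quantile normalization (adjusted p = 0.0235), when only those groups were fitted (adjusted p = 0.000106) and without periosteum P2 replicate 2 (adjusted p = 0.0487), and with P1 and P3 only it was −2.48 (adjusted p = 0.159). When only those groups were fitted, P1 against P2 of muscle (adjusted p = 0.0106) and muscle P1 against bone marrow P1 (adjusted p = 0.00242) passed as well, and P1 against P2 of periosteum passed without periosteum P2 replicate 2 (4.82, adjusted p = 0.0416). Without periosteum P2 replicate 1, the library at 0.9, the muscle values of Fgfr2 differed from those of periosteum by −3.43 (adjusted p = 2.25e-06) and from those of bone marrow by −2.16 (adjusted p = 0.00018). Fgfr2 was then also lower in muscle P1 than in periosteum P1 by −2.55 (adjusted p = 0.0257) and than in bone marrow P1 by −3.03 (adjusted p = 0.00437). Without it, Fgfr2 was also higher in P1 than in P2 of bone marrow (adjusted p = 8.78e-05) and of muscle (2.56, adjusted p = 0.0165) and than in P3 of bone marrow (2.61, adjusted p = 0.0172).

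Fgfr3 (chr5:33721674-33737068), known for holding back chondrocyte growth, was lowest in muscle P2. That group was at 0, 0.773 and 30.7, and muscle P1 at 108, 234 and 103. Muscle P3 was higher, at 515, 316 and 527, with no overlap with muscle P1. The test of muscle P1 against muscle P3 did not pass (−1.67 ± 1.01). Periosteum P1 held 634, 1106 and 880, periosteum P3 held 211, 1000 and 747, and bone marrow P1 held 601, 744 and 705. Periosteum P2 held 341 and 293 in replicates 1 and 3 and 2979 in replicate 2. Bone marrow P3 was at 477, 189 and 129 and bone marrow P2 at 95.2, 78 and 182. Across the 3 subpopulations, muscle was below periosteum by −3.45 ± 0.58 (adjusted p = 0.000137) and below bone marrow by −2.07 ± 0.58 (adjusted p = 0.00903). Both differences rested in part on P2: with P1 and P3 only they were −1.46 (adjusted p = 0.198) and −0.67 (adjusted p = 0.647). Chondrocyte markers were higher in P1 and P2 of periosteum than in muscle, and their part in the periosteum difference was not tested. P1 exceeded P2 in muscle by 5.18 ± 1.01 (adjusted p = 0.00133) and in bone marrow by 2.61 ± 1.01 (adjusted p = 0.0462). The muscle call ended when only the groups compared were fitted (adjusted p = 0.0784), and the bone marrow call ended in 17 of the 27 fits that left out 1 library (adjusted p up to 0.115). Annotated exons of the gene overlap an unclassified transcript on the other strand, G630022F23Rik, over 998 of 7158 bases, and the library kit does not keep strand.

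Fgfr4 (chr13:55152640-55168759), the receptor that in muscle marks satellite cells and young myofibres, was high in a single group. The muscle P1 libraries held 1448, 655 and 877. No other library exceeded 92.9, in periosteum P1 replicate 2, whose group was otherwise at 0 and 7.47. Muscle P3 held 17.1, 22.9 and 39.0 and bone marrow P2 held 28.1, 25.8 and 30. Fgfr4 was listed at 0 in all 3 bone marrow P1 libraries, at 0.481, 0 and 0 in muscle P2, 0.482, 0 and 0 in periosteum P3, 36.9, 0 and 0 in periosteum P2 and 0, 8.83 and 1.26 in bone marrow P3. Muscle P1 was above every library of the other 8 groups. It exceeded periosteum P1 by 6.67 ± 1.32 on the log2 scale (adjusted p = 0.00319), a call that ended when only those groups were fitted (adjusted p = 0.129). It exceeded muscle P2 by 9.69 ± 1.32 (adjusted p = 2.59e-05). The size of that value depends on the pseudocount, since muscle P2 was at or near 0, and ran from 7.52 to 12.35 over the alternatives. The excess over muscle P3, 5.19 ± 1.32, did not pass with all groups in the fit (adjusted p = 0.0873). It passed when only those groups were fitted (adjusted p = 0.00797), with a pseudocount of 5 (adjusted p = 0.0019), after quantile normalization (adjusted p = 0.00733) and without any 1 of periosteum P1 replicate 1, periosteum P1 replicate 2 or periosteum P2 replicate 1 (adjusted p 0.0299 to 0.0372). Over the 3 subpopulations, muscle was above periosteum by 3.20 ± 0.76 (adjusted p = 0.00364) and above bone marrow by 2.81 ± 0.76 (adjusted p = 0.00721). With P1 and P3 only, these were 5.59 (adjusted p = 0.000363) and 6.54 (adjusted p = 1.65e-05). The sizes over the 3 subpopulations also depend on the pseudocount. They ran from 2.42 to 4.32 against periosteum and from 2.29 to 3.49 against bone marrow over the alternatives. In bone marrow the test of P1, at 0, against P2 passed with P2 higher (adjusted p = 0.00664), a call that ended after quantile normalization (adjusted p = 0.144).

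**Figure D1:**
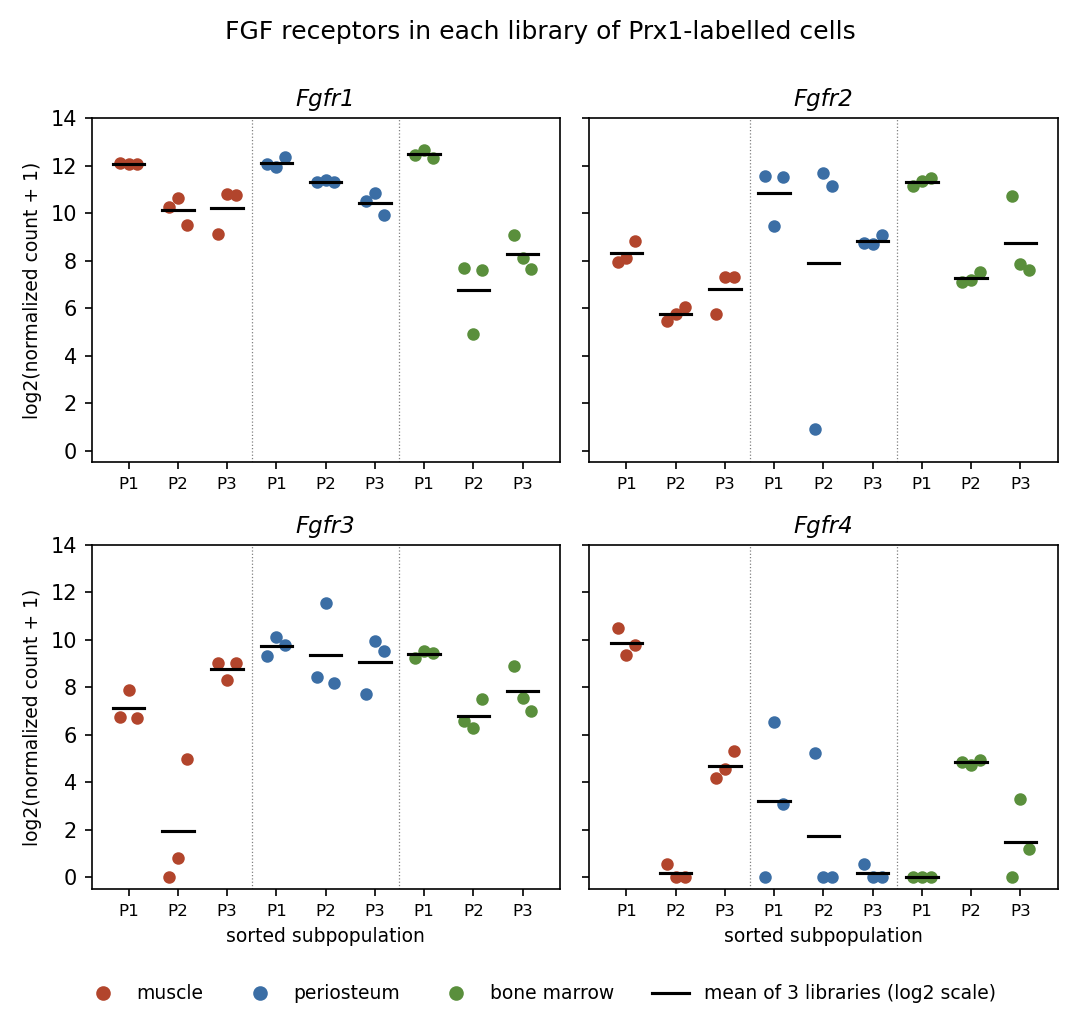
Each point is a library, plotted as log2(normalized count + 1) on the vertical axis for the 4 FGF receptors, with the P1, P2 and P3 subpopulations of each tissue along the horizontal axis and a black line at the mean of 3 libraries. Fgfr1 was high in the P1 cells of every tissue, Fgfr2 did not exceed 456 in any muscle or bone marrow P2 library and was at 0.9 in a periosteum P2 library, and Fgfr4 stood high in muscle P1 alone, at 655 to 1448 normalized counts.

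The genes whose values moved most like Fgfr4 over the 27 libraries were Trpv1 (Pearson r = 0.90), Cdh19 (0.87) and Pax7 (0.84), the transcription factor that defines satellite cells. Pax7 was at 428, 242 and 228 in muscle P1, at 3.28, 0.818 and 11.5 in muscle P3, and at 0 in all libraries of muscle P2. Myf5, the myogenic factor of the same cells, was at 551, 560 and 667 in muscle P1 and at or below 14.7 in the other muscle libraries. Other genes of the same marker list did not follow Fgfr4: Myod1 was at 483, 368 and 313 in muscle P1 but at 1016, 1009 and 1066 in muscle P2, where Fgfr4 was at or near 0, and the mean of Vcam1 was 1640 in muscle P1 and 3095 in muscle P3. All 8 satellite cell markers were at 10 or more in each muscle P1 library, and Pax7, Myf5 and Myod1 were at 0 in every library of periosteum P3 and bone marrow P3 as well as bone marrow P1. Pax7 was at 30.1, 7.03 and 40.2 in bone marrow P2, where Fgfr4 was also above 0 in every library. The summed level of the 8 markers, to which Vcam1 and Cdh15 contributed most, was 4388 to 5298 in muscle P1 and 4665 to 6559 in bone marrow P1, where Pax7, Myf5, Myod1 and Chrdl2 were at 0 and Fgfr4 was too. The part of satellite cell RNA in the Fgfr4 values was not tested. Cdh19, a cadherin of Schwann cells, was at 67.0, 96.5 and 319 in muscle P1, and all 6 Schwann cell markers were at 10 or more in each of those libraries, with sums of 1747 to 3022, against 463 to 4282 in periosteum P2, the group with the highest sum. These correlations run over libraries that share groups and scaling and are given without a test.

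**Figure D2:**
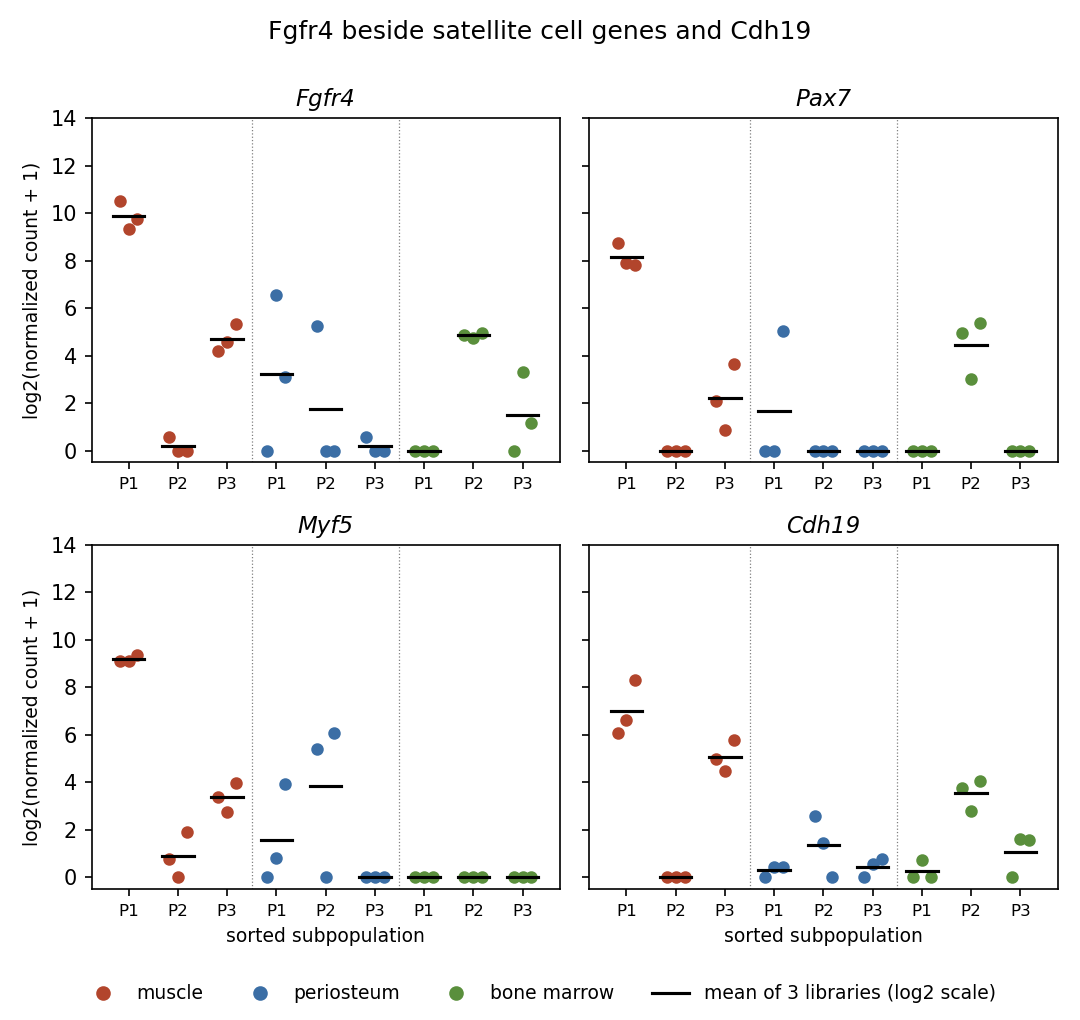
Each point is a library, plotted as log2(normalized count + 1) for Fgfr4, the satellite cell genes Pax7 and Myf5 and the Schwann cell gene Cdh19, with P1, P2 and P3 of each tissue along the horizontal axis and a black line at the mean of 3 libraries. All 4 genes were highest in muscle P1, and Pax7 and Myf5 were at 0 in the P1 and P3 cells of bone marrow.

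For the other receptors, the genes most like Fgfr1 were Vasn (r = 0.94), Nupr1 (0.94) and Fkbp9 (0.91), and those most like Fgfr2 were the collagen-binding integrin gene Itga10 (0.85), Ptpn14 (0.83) and the osteoblast transcription factor Sp7 (0.82). Sp7, like Fgfr2, was highest in bone marrow P1 (4222, 5190 and 4059) and periosteum P1 (1491, 1043 and 2078), and in periosteum P2 it was at 1.67 in replicate 1 against 275 and 357 in the other 2. That was the library with Fgfr2 at 0.9. Itga10 was there at 3.34, against 334 and 569. Sp7 and Itga10 were picked by their correlation with Fgfr2 over libraries that include this one. Their low values there are therefore not independent of that choice. Fgfr3 moved most like Epha2 (0.91), the bone matrix gene Spp1 (0.84) and 2410002F23Rik (0.83).

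Per kb of exon and by group mean, Fgfr1 made up the largest share of the summed receptor level in 7 of the 9 groups. Single libraries differed: Fgfr3 reached 51.7% in muscle P3, 41.3% in periosteum P2 and 41.2% in periosteum P3. The lowest Fgfr1 shares in those groups were 41.2%, 26.9% and 38.4%. Among P1 cells the Fgfr1 share was 62.9% ± 4.07 (SD, n = 3) for bone marrow, 57.6% ± 7.25 for muscle and 57.3% ± 4.0 for periosteum. The rest of that sum differed by tissue. In muscle P1 it was mostly Fgfr4 (35.4% ± 9.53), with Fgfr2 at 4.20% ± 1.63 and Fgfr3 at 2.81% ± 1.72. Per kb of the longest annotated transcript, in place of all exons, the Fgfr4 share was 23.1% ± 7.48 and that of Fgfr1 68.2% ± 5.21. In periosteum P1 the rest was Fgfr2 (25.5% ± 13.1) and Fgfr3 (15.8% ± 6.97), and in bone marrow P1 Fgfr2 (26.9% ± 3.49) and Fgfr3 (10.2% ± 0.66). In muscle P2 Fgfr1 was at 93.7% ± 5.43, and in muscle P3 Fgfr3 reached 32.0% ± 17.6. The groups where Fgfr1 did not lead were bone marrow P2, with Fgfr3 at 30.1% ± 5.94 and Fgfr2 at 29.6% ± 9.14, and bone marrow P3, with Fgfr2 at 39.4% ± 15.8. By the longest transcript Fgfr2 led in bone marrow P2, at 37.3% ± 11.7. The summed level was also low, at 35.3 to 71.1 normalized counts per kb in bone marrow P2 against 880 to 1021 in bone marrow P1.

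**Figure D3:**
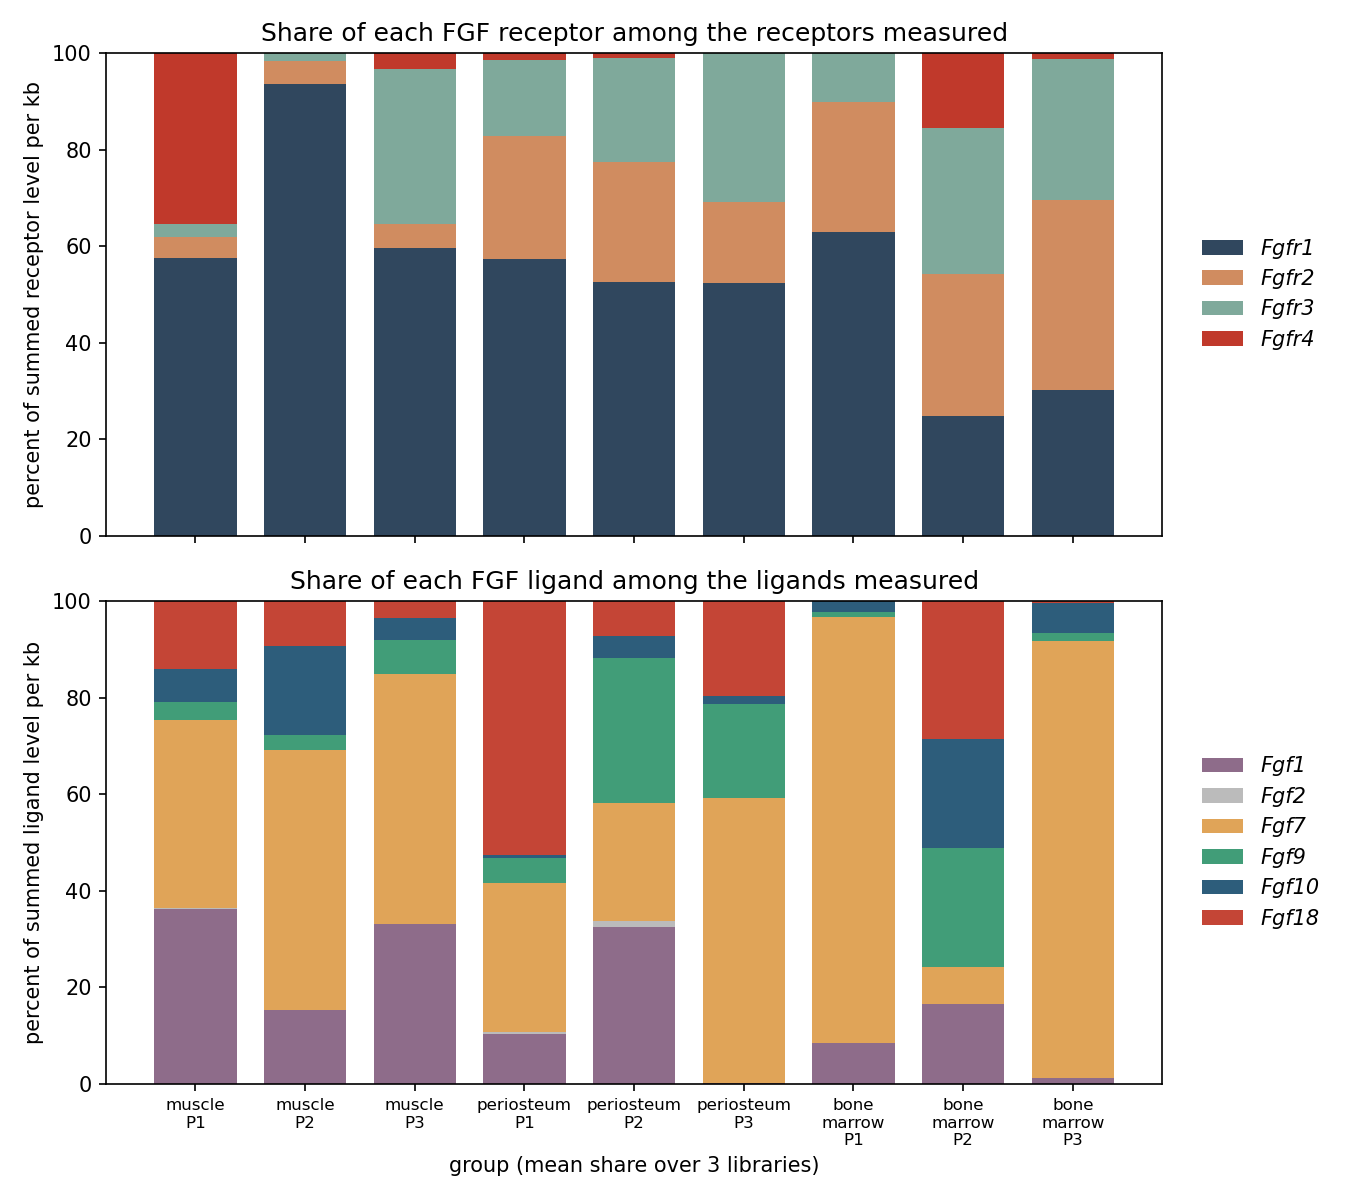
Stacked bars give, for each of the 9 groups, the mean share over 3 libraries of each receptor (upper panel) and ligand (lower panel) in the summed normalized counts per kb of exon of the 4 receptors or 6 ligands, in percent. Fgfr1 made up 57.3% to 62.9% of the receptor level in the P1 cells of the 3 tissues, Fgf18 made up 52.6% of the ligand level in periosteum P1, and Fgf7 made up 88.3% in bone marrow P1. Standard deviations are not drawn and stand in the text.

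Among the ligands, Fgf1 had its highest group means in muscle P3 and muscle P1. Its product binds every FGF receptor and has no signal peptide for classical secretion. It stood at 755, 942 and 802 in muscle P1 and at 289, 380 and 3846 in muscle P3, where replicate 3 held the highest value of any ligand in any library. Muscle P2 was lower, at 71.0, 104 and 255. Periosteum P1 held 38.4, 327 and 150 and bone marrow P1 held 149, 101 and 106, all below the muscle P1 libraries. Neither test against muscle P1 passed (adjusted p = 0.433 and 0.417). Periosteum P2 held 7.31, 719 and 0.756, so that replicate 2 alone carried the group, and bone marrow P2 held 104, 5.25 and 69.2. In P3 of the other tissues it was nearly absent, with 0.635, 0 and 2.68 in periosteum and 33.0, 6.11 and 0 in bone marrow. Muscle exceeded periosteum by 4.64 ± 0.94 (adjusted p = 0.000928) and bone marrow by 3.84 ± 0.94 (adjusted p = 0.00304), and with P1 and P3 only by 5.71 (adjusted p = 0.00205) and 4.87 (adjusted p = 0.00386). In periosteum, P1 exceeded P3 by 6.10 ± 1.63 (adjusted p = 0.031). This call ended without periosteum P1 replicate 2 or 3 or periosteum P3 replicate 1 or 2 (adjusted p up to 0.102), with a pseudocount of 5 (adjusted p = 0.0518), with no filter (adjusted p = 0.051) and when only those groups were fitted (adjusted p = 0.341). Without periosteum P2 replicate 2, the library at 719, P1 exceeded P2 in periosteum by 5.03 (adjusted p = 0.0181).

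Fgf7 (chr2:126034658-126091185), the keratinocyte growth factor of stromal cells, was at 108 or more in every library outside the P2 groups of periosteum and bone marrow. Muscle P3 held 820, 996 and 683, muscle P1 held 675, 472 and 452 and muscle P2 held 241, 261 and 328, and these 3 groups did not overlap. Neither P1 against P2 (adjusted p = 0.691) nor P1 against P3 passed in muscle. Bone marrow P1 held 717, 460 and 1460, periosteum P1 held 650, 187 and 538 and periosteum P3 held 108, 607 and 437. Bone marrow P3 was at 977 in replicate 1 and at 164 and 234 in the others. The P2 cells of the 2 bone tissues stood apart, with 8.94, 3.87 and 96.2 in periosteum P2 and 2.35, 12.2 and 17.6 in bone marrow P2. P1 exceeded P2 by 6.39 ± 0.96 in bone marrow (adjusted p = 2e-05) and by 4.59 ± 0.96 in periosteum (adjusted p = 0.00145), the latter ending when only those groups were fitted (adjusted p = 0.234). Globin transcripts were high in the same 6 P2 libraries, and their part in these differences was not tested. Muscle exceeded periosteum by 1.95 ± 0.55 (adjusted p = 0.0124) and bone marrow by 1.86 ± 0.55 (adjusted p = 0.013). With P1 and P3 only, these differences were 0.90 (adjusted p = 0.435) and 0.36 (adjusted p = 0.827). Per kb, Fgf7 made up 88.3% ± 6.21 of the summed ligand level in bone marrow P1 and 90.6% ± 7.46 in bone marrow P3. The genes most like it were Steap4 (r = 0.91), Apoe (0.91) and Tmem205 (0.90).

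Fgf10 (chr13:118669791-118792115), which drives limb bud outgrowth from the mesenchyme and binds the same receptor form as Fgf7, had its highest group means in the muscle groups. It was at 139, 178 and 85.5 in muscle P1, 69.0, 128 and 176 in muscle P3 and 259, 7.34 and 224 in muscle P2. Periosteum held 0.535, 22.1 and 4.50 in P1, 8.15, 11.1 and 15.7 in P2 and 4.37, 0.846 and 34.8 in P3. Bone marrow P1 held 22.6, 34.4 and 12.5, bone marrow P3 held 11.6, 35.2 and 19.9, and bone marrow P2 held 31.8, 25.1 and 251. Apart from muscle P2 replicate 2, every muscle library was above every periosteum library. Muscle exceeded periosteum by 3.74 ± 0.75 (adjusted p = 0.000852, and 4.26 with P1 and P3 only, adjusted p = 0.00349). The muscle against bone marrow difference was 1.80 ± 0.75 (adjusted p = 0.0789), which passed with a pseudocount of 5 (adjusted p = 0.0338), after quantile normalization (adjusted p = 0.0323) and when only those groups were fitted (adjusted p = 0.0283). Within P1, muscle exceeded periosteum by 4.48 ± 1.30 (adjusted p = 0.0434), a call that ended in 15 of the 27 fits without 1 library (adjusted p up to 0.212). That call also ended with a pseudocount of 0.1 (adjusted p = 0.058) and with no filter (adjusted p = 0.0716). It ended as well after quantile normalization (2.84, adjusted p = 0.212) and when only those groups were fitted (adjusted p = 0.149).

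Fgf9 (chr14:58070547-58112720), a ligand of chondrocyte and mesenchymal receptors, was scarce in the bone marrow cells with CD200 or CD105. Bone marrow P1 held 11.8, 12.1 and 1.97 and bone marrow P3 held 4.11, 9.37 and 3.79. Muscle P3 held 145, 205 and 162 and muscle P1 held 58.8, 109 and 50.5, above all 6 of those libraries. The test of muscle P1 against bone marrow P1 did not pass (adjusted p = 0.117). Periosteum varied within each group, with 366, 16.2 and 115 in P1, 115, 15 and 53 in P2 and 140, 415 and 24.5 in P3. Muscle P2 held 39.2, 20.2 and 8.11 and bone marrow P2 held 47.3, 25.0 and 252. Periosteum exceeded bone marrow by 2.38 ± 0.69 (adjusted p = 0.0136) and muscle exceeded it by 2.03 ± 0.69 (adjusted p = 0.0294), and with P1 and P3 only by 3.84 (adjusted p = 0.00346) and 3.94 (adjusted p = 0.00153). The muscle call ended in 7 of the 27 fits without 1 library (adjusted p up to 0.0686). In bone marrow P1 was below P2 by −3.11 ± 1.19 (adjusted p = 0.0454), which ended under 7 of 10 other settings and in 15 of the 27 fits without 1 library.

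Fgf18 (chr11:33117430-33147400), the perichondrial ligand of growing bone whose promoter is printed above, had its highest group mean in periosteum P1. Its values there were 1317, 193 and 73.7, so replicate 1 carried the mean, and muscle P1 against periosteum P1 did not pass (adjusted p = 0.516). In the other periosteum groups it was at 8.61, 1.77 and 1.24 (P2) and at 83.9, 0 and 11.7 (P3). Muscle P1 was even, at 55.6, 66.4 and 86.3, with 31.8, 3.97 and 25.6 in P2 and 14.1, 31.1 and 18.3 in P3. In bone marrow Fgf18 was listed at 0 in all 3 P1 libraries and at 0, 0 and 0.936 in P3. Bone marrow P2 held 14.9, 5.59 and 89.1. Periosteum P1 exceeded P2 by 6.10 ± 1.32 (adjusted p = 0.00211) and P3 by 4.71 ± 1.32 (adjusted p = 0.0414). When only those groups were fitted neither passed (adjusted p = 0.175 and 0.676), and the P3 call ended in 17 of the 27 fits without 1 library. Both muscle P1 (adjusted p = 0.00296) and periosteum P1 (adjusted p = 0.000401) passed the test against bone marrow P1, and no fold is given against a group listed at 0. Over the subpopulations, muscle exceeded bone marrow by 3.27 ± 0.76 (adjusted p = 0.00199) and periosteum exceeded it by 2.89 ± 0.76 (adjusted p = 0.00735). These sizes depend on the pseudocount, since bone marrow P1 and P3 were at or near 0. They ran from 1.935 to 5.184 and from 1.985 to 4.323 over the alternatives. Within P2 the group means ran the other way, at 36.5 for bone marrow, 20.5 for muscle and 3.87 for periosteum. The test of P1 against P2 in bone marrow passed with P2 higher (adjusted p = 0.0125) and ended with a pseudocount of 5 (adjusted p = 0.0517), after quantile normalization (adjusted p = 0.217) and without bone marrow P2 replicate 3, the library at 89.1 (adjusted p up to 0.0884). Per kb, Fgf18 made up 52.6% ± 29.0 of the summed ligand level in periosteum P1, from 21.9% to 79.5% by library. The genes most like it were Uts2r (r = 0.90), Tubb2b (0.85) and the neurotrophin receptor gene Ntrk2 (0.83).

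Fgf2 (chr3:37348346-37410108), the basic FGF of cultured stem cells, was nearly absent. It was at 0 in 19 of the 27 libraries, and its highest value was 17.5, in periosteum P1 replicate 3, whose 2 other libraries were at 0. The only group with all 3 libraries above 0 was muscle P1, at 3.83, 6.75 and 5.24. Fgf2 reached 10 in 2 libraries, short of the 3 required for testing, so 9 of the 10 members were tested. Its exons overlap those of Nudt6 on the other strand over 640 bases, and reads of the pair cannot be told apart without strand. Antisense transcripts also overlap exons of Fgfr1 (164 bases) and Fgf10 (123 bases).

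**Figure D4:**
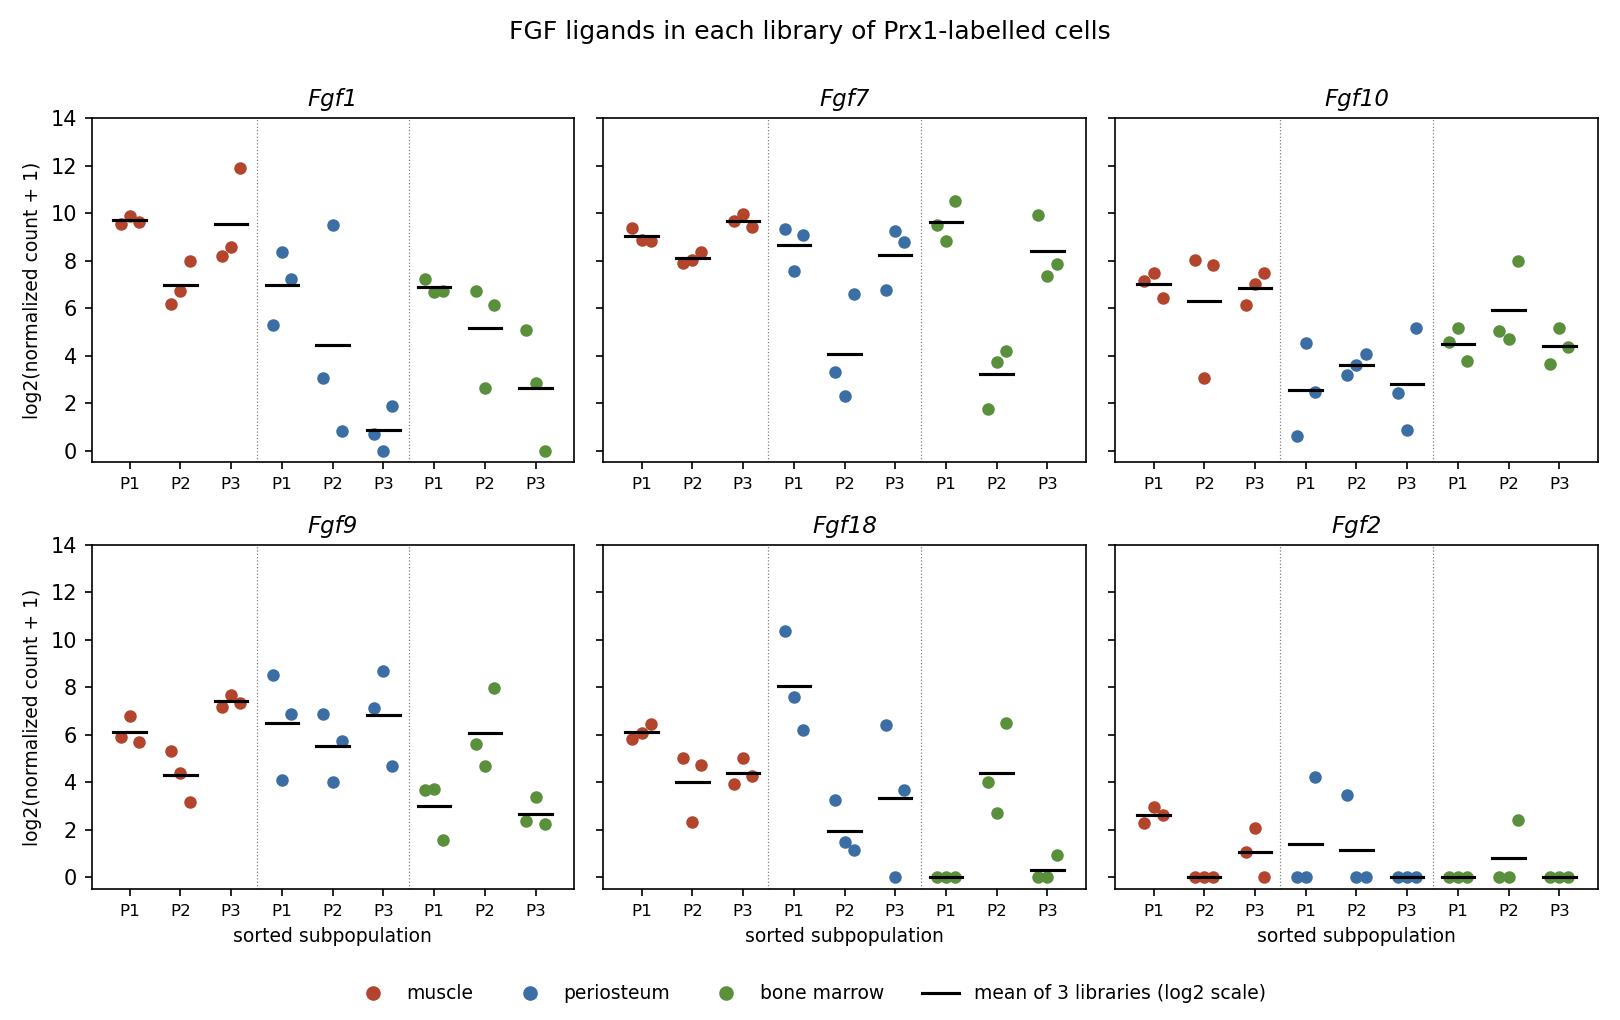
Each point is a library, plotted as log2(normalized count + 1) on the vertical axis for the 6 FGF ligands, with P1, P2 and P3 of each tissue along the horizontal axis and a black line at the mean of 3 libraries. By group mean Fgf1 was highest in muscle P3 and P1 and Fgf10 in the muscle groups, Fgf7 was low in the P2 cells of periosteum and bone marrow, Fgf18 peaked in periosteum P1 at up to 1317 normalized counts and was at 0 in bone marrow P1, and Fgf2 never exceeded 17.5.

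Counted by tissue, with P1, P2 and P3 weighing equally, 4 of the 9 members tested were higher in muscle than in periosteum (Fgfr4, Fgf1, Fgf7 and Fgf10) and 1 was lower (Fgfr3), where a call needs an adjusted p under 0.05 and a log2 fold change past 1.5 in either direction. Of all 18442 genes tested, 20.4% were called in that comparison, 3178 of them higher in muscle and 589 lower. Against bone marrow, muscle was higher in 6 members (Fgfr1, Fgfr4, Fgf1, Fgf7, Fgf9 and Fgf18) and lower in Fgfr3, where 21.7% of all genes were called. Periosteum was higher than bone marrow in Fgfr1, Fgf9 and Fgf18, 3 members, beside 20.8% of all genes. Over all genes, the calls against bone marrow were 2012 higher and 1993 lower for muscle and 740 higher and 3097 lower for periosteum. The median log2 fold change of the 9 members was 0.39 in muscle against periosteum and 1.86 in muscle against bone marrow, and that of all genes was 0.56 and −0.10. After quantile normalization the median of all genes was −0.0141 and −0.134. With P1 and P3 only, muscle against periosteum kept 3 of the calls (Fgfr4, Fgf1 and Fgf10) and muscle against bone marrow 4 (Fgfr4, Fgf1, Fgf9 and Fgf18). In that fit the calls over all genes fell too, from 3767 to 1817 and from 4005 to 2546. The excess of Fgfr1 over bone marrow did not pass then, at 0.77 for muscle (adjusted p = 0.229) and 0.89 for periosteum (adjusted p = 0.155). In muscle, that of 1.64 ± 0.33 (adjusted p = 0.000412) also fell under the fold threshold without bone marrow P2 replicate 2, at 1.34 (adjusted p = 0.0003).

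Counted within tissues, P1 was higher than P2 in 3 members in muscle (Fgfr1, Fgfr3 and Fgfr4, where 8.21% of all genes were called), in 2 in periosteum (Fgf7 and Fgf18, beside 19.1%) and in 3 in bone marrow (Fgfr1, Fgfr3 and Fgf7), where 3 others were lower (Fgfr4, Fgf9 and Fgf18) and 34% of all genes were called. In bone marrow P2 the members that were higher than in P1 were at low levels, at most 252. Between P1 and P3 few members passed: none in muscle, where 0.466% of all genes were called and 2 members had an unadjusted p below 0.05 (Fgfr4 and Fgfr1, beside 6.18% of all genes), 2 in periosteum (Fgf1 and Fgf18, beside 4.18%) and 1 in bone marrow (Fgfr1, beside 6.6%). Among the P1 cells, muscle was higher than periosteum in Fgfr4 and Fgf10 (2 members, beside 4.9% of all genes), higher than bone marrow in Fgfr4 and Fgf18 (2, beside 8.34%), and periosteum was higher than bone marrow in Fgf18 (1, beside 4.87%). Over all genes, the calls in these P1 comparisons were 801 higher and 103 lower, 996 higher and 542 lower, and 353 higher and 545 lower. The change from P3 to P1 was also compared between tissues, and limma called it for 0 of the 9 members in muscle against periosteum, muscle against bone marrow and periosteum against bone marrow, where 0.249%, 1.99% and 0.537% of all genes were called. At an unadjusted p below 0.05 those counts were 1, 3 and 3, beside 8.25%, 11% and 10.5% of all genes. The nearest was Fgfr4 in muscle against bone marrow (6.68 ± 1.87, adjusted p = 0.0656), which passed when only those groups were fitted (adjusted p = 0.00326), with a pseudocount of 5 (adjusted p = 0.00895) and after quantile normalization (adjusted p = 0.0132). Its size depends on the pseudocount, since bone marrow P1 was at 0, and was 5.57 with a pseudocount of 5. Tests that share a group share its libraries, so these counts are not independent of each other.

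**Figure D5:**
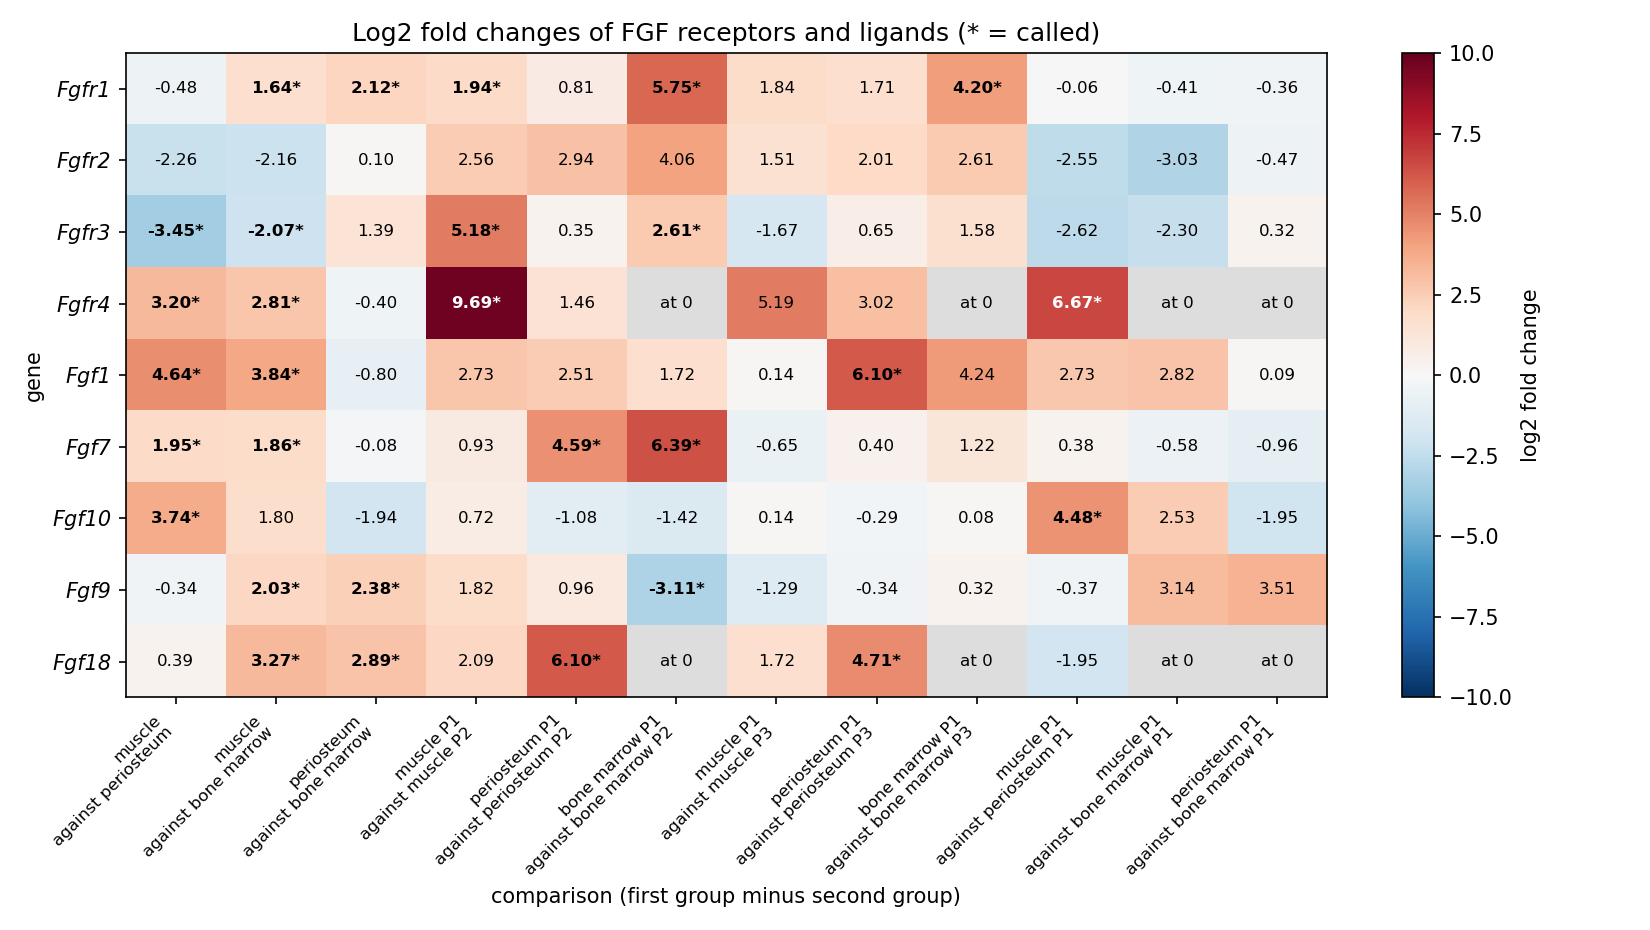
Rows are the 9 members tested and columns the 12 comparisons of tissues or groups, and each cell gives the log2 fold change of the first against the second, in colour and as a number, with an asterisk where it was called. Cells marked "at 0" have a group listed at 0 in all 3 libraries and carry no fold change. Fgfr4 was 9.69 higher in muscle P1 than in muscle P2, and Fgfr3 was lower in muscle than in both other tissues with P1, P2 and P3 averaged.

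Beyond the members, 16 other genes of the FGF family summed to between 993 and 1452 in the muscle P2 libraries. In no other group did that sum exceed 610. They are not all receptor ligands, since Fgf13 (below) is among them. Of these 16 genes, 10 passed the filter, and muscle exceeded periosteum in 3 and bone marrow in 3, with none lower, beside the 20.4% and 21.7% of all genes called. The median of the 10 was 0.73 and 1.33 in those comparisons. Fgf6, the ligand of skeletal muscle, was at 115 ± 34.8 in muscle P2 (SD, n = 3) and at most at 8.25 ± 7.64 as a group mean elsewhere, and muscle P1 was below P2 by −4.70 ± 0.97 (adjusted p = 0.00241). The myofibre markers were high in the same muscle P2 libraries, and their part in this value was not tested. Fgf13, an intracellular relative that does not bind the receptors, had its highest mean in muscle P2 too, at 1044 ± 287.

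Of 10 co-receptors and binding proteins, 9 were tested, and muscle fell below periosteum in 1, exceeded bone marrow in 2 and fell below it in 1, beside 20.4% and 21.7% of all genes, with medians of 0.07 and 0.27. Cdh2 (N-cadherin, which associates with Fgfr1) had a P1 mean of 8235 for bone marrow, 3005 for periosteum and 312 for muscle. Muscle P1 was below periosteum P1 by −3.32 ± 0.62 (adjusted p = 0.00189) and below bone marrow P1 by −4.78 ± 0.62 (adjusted p = 1.08e-05). Cdh2 was higher in P1 than in P2 of all 3 tissues, by 4.53 to 7.40. Flrt2, a membrane protein that binds FGF receptors, was lower in bone marrow than in muscle (3.05 ± 0.60, adjusted p = 0.000365) and periosteum (3.27 ± 0.60, adjusted p = 0.0003).

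Of 24 genes for heparan sulfate chains and their carrier proteins, all were tested, and muscle exceeded bone marrow in 7 and fell below it in 2, while periosteum exceeded bone marrow in 7 and fell below it in 1, where 21.7% and 20.8% of all genes were called. The median log2 fold change of the 24 was 0.77 and 0.62, beside −0.10 and −0.69 for all genes. The carriers split by tissue. Gpc1 (glypican 1) was at a P1 mean of 13432 for bone marrow, 5981 for periosteum and 632 for muscle, and muscle P1 was below bone marrow P1 by −4.49 ± 0.78 (adjusted p = 0.00034). Gpc3 (glypican 3) ran the other way, with P1 means of 4498 for muscle, 2283 for periosteum and 47.7 for bone marrow, and muscle P1 exceeded bone marrow P1 by 6.60 ± 1.36 (adjusted p = 0.002). Sdc3 was also lower in muscle P1 than in bone marrow P1 (−4.16 ± 0.89, adjusted p = 0.00289) and Hs3st1, which adds sulfate at the site that antithrombin binds, was higher (6.08 ± 1.78, adjusted p = 0.031).

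Of 18 genes that relay the signal, from Frs2 to the ERK kinases, 1 was higher in muscle than in periosteum, 1 was lower in muscle than in bone marrow and 3 were lower in periosteum than in bone marrow, beside 20.4%, 21.7% and 20.8% of all genes. The first was Map2k1 (MEK1, an ERK kinase), higher by 2.90 ± 0.33 (adjusted p = 9.81e-07). By limma none of the 18 passed between the P1 cells of any 2 tissues. Over all genes, 4.9% were called in muscle against periosteum, 8.34% in muscle against bone marrow and 4.87% in periosteum against bone marrow. Of 20 feedback and target genes, muscle exceeded periosteum in 8 and bone marrow in 6, with none lower in either comparison, beside the 20.4% and 21.7% of all genes called. The median log2 fold change of the 20 was 1.73 and 1.57, beside 0.56 and −0.10 for all genes. Among the former, Spry1, a feedback inhibitor of receptor tyrosine kinases, was 3.53 ± 0.55 higher (adjusted p = 5.66e-05) and the ETS factor Etv4 2.89 ± 0.85 (adjusted p = 0.0151). Against bone marrow, the immediate early genes led, with Egr1 at 5.24 ± 0.48 (adjusted p = 9.69e-09) and Fos at 3.54 ± 0.24 (adjusted p = 6.02e-11). The P1 means of Egr1 were 74622 for muscle, 32220 for periosteum and 3758 for bone marrow. Digestion differed between the tissues in the same order, at 60 minutes, 20 minutes and none, so tissue and digestion cannot be told apart. Between the P1 cells, Spry2 was higher in muscle than in periosteum by 2.76 ± 0.76 (adjusted p = 0.0332) and than in bone marrow by 3.80 ± 0.76 (adjusted p = 0.00148).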

How the data were processed

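RNA-seq was performed on 27 libraries, 3 for each of 9 groups, prepared from sorted cells with SMART-Seq v4 and Nextera XT, which do not keep strand. The authors trimmed reads with Trim Galore and aligned them with STAR. The values that the authors deposited, treated as a signal, are counts per gene that the authors normalized with DESeq2. The genome build, annotation and counting tool are not given in the sources used here. Because the division was not reversible (3.23% to 42.4% of values per library came within 0.01 of a whole multiple of that library's commonest low value), no count model was applied, read depth is unknown, and sums of normalized counts are given in its place.

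Of 30154 rows, the 1 labelled as a transgene was left out, and the 3 genes without a symbol were kept under their gene ID. Genes at 10 or more in at least 3 libraries (18442) were tested with limma 3.58.1 (R 4.3.3) on log2(normalized count + 1), with a mean for each of the 9 groups, a trended variance and Benjamini-Hochberg adjustment over all genes kept. All groups shared the estimate of a gene's spread, except where only the groups compared were fitted, which used the libraries of those groups. A gene was called where its adjusted p was under 0.05 and its log2 fold change past 1.5 in either direction. Fold changes on this scale understate those of low genes. Groups follow the labels. Tissue comparisons average P1, P2 and P3. Tables and figures were made with Python 3.11.15, pandas 2.3.3, numpy 2.4.6, scipy 1.17.1 and matplotlib 3.10.9. The tests were also run on simulated data with the same spread in every group, which could not check for unequal spread.

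The members and the pathway and marker lists were chosen with earlier results of these data known. The text names all 10 members, from each other FGF list the called genes with the 2 largest rises and 2 largest falls in a comparison and the 2 genes with the highest mean, from each marker list the 2 highest genes and those at 0, the sorting genes, and for each member the 3 genes with the highest Pearson r. Myf5 and Myod1, and Sp7 and Itga10 in single libraries, were given after their values were seen. Alternatives were pseudocounts of 0.1 and 5, no filter, a filter on a mean of at least 50, rescaling to the same total, quantile normalization, no variance trend, only the groups compared, the length of the longest transcript for levels per kb, a replicate block, and each library left out. A fit with P1 and P3 only was added after seeing the data. Gene positions are from GENCODE M21 (GRCm38) by gene ID, with 29732 IDs matched, and promoter windows from RefSeq by symbol. The position of Fgf1 is not reported here.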

Additional observations from a re-analysis of the deposited data

How the results depend on the processing

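Of 34 member comparisons called, 20 stayed called in every other setting named under the processing, the added one aside, and every fit without 1 library, and none changed direction. The counts of members called ran, over the fits without 1 library, from 5 to 6 in muscle against periosteum (5 with all libraries), 5 to 8 in muscle against bone marrow (7), 3 to 4 in periosteum against bone marrow (3), 2 to 4 in P1 against P2 of muscle (3), 2 to 4 of periosteum (2) and 3 to 7 of bone marrow (6), 0 to 1 in P1 against P3 of muscle (0), 0 to 3 of periosteum (2) and 1 to 2 of bone marrow (1). Among P1 cells they ran from 1 to 3 in muscle against periosteum (2), 2 to 3 in muscle against bone marrow (2) and 1 to 2 in periosteum against bone marrow (1), and for the change from P3 to P1 in muscle against bone marrow from 0 to 1. With P1 and P3 only, 3 members were called in muscle against periosteum and 4 in muscle against bone marrow. With only the groups compared in the fit, 0 were called in P1 against P2 and 0 in P1 against P3 of periosteum, 1 in P1 against P3 of muscle, 1 in muscle P1 against periosteum P1, 7 in muscle P1 against bone marrow P1 and 3 for the change from P3 to P1 in muscle against bone marrow. That change gave 1 with a pseudocount of 5, a mean of at least 50, rescaling or quantile normalization. P1 against P3 of muscle gave 1 with a pseudocount of 5 or quantile normalization. P1 against P3 of periosteum gave 1 with a pseudocount of 0.1 or 5 or rescaling and 0 with no filter. Muscle P1 against periosteum P1 gave 1 with a pseudocount of 0.1 or no filter. Counts over all genes moved under many of the same settings and are given next. The causes were not tested.

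Over all genes, calls went from 3767 to 1817, 4005 to 2546 and 3837 to 1884 in the 3 tissue comparisons with P1 and P3 only. With only the groups compared they went from 1514 to 2487 in P1 against P2 of muscle, 3521 to 104 of periosteum, 86 to 766 in P1 against P3 of muscle, 771 to 0 of periosteum and 1218 to 2399 of bone marrow, and from 1538 to 2862 in muscle P1 against bone marrow P1. Bone marrow P1 against P2 went from 6272 to 3294 with a mean of at least 50. P1 against P3 went in muscle to 40 with a pseudocount of 0.1, 229 with 5 and 213 after quantile normalization, and in bone marrow to 2079 after rescaling. The change from P3 to P1 went from 46 to 74 (pseudocount 5) and 81 (rescaling) in muscle against periosteum, from 367 to 821 (rescaling), 716 (quantile), 197 (no trend) and 2507 (only the groups compared) in muscle against bone marrow, and from 99 to 199, 155 and 55 under the first 3 of these in periosteum against bone marrow. Leaving out 1 library moved some of these counts by over 1.5 times: P1 against P2 of muscle to 999 and 984 (without muscle P1 replicate 1 or 3), P1 against P3 of muscle to between 22 and 51 (any muscle P1 or P3 library) and of bone marrow to between 720 and 789 (bone marrow P1 replicate 1 or 2 or P3 replicate 2 or 3), muscle P1 against periosteum P1 to between 497 and 534 (any muscle P1 library) and periosteum P1 against bone marrow P1 to between 502 and 578 (any bone marrow P1 library). The change from P3 to P1 moved in muscle against periosteum to between 15 and 29 (any muscle P1 library, muscle P3 replicate 2 or 3) or 78 and 120 (periosteum P1 or P3 replicate 2 or 3), in muscle against bone marrow to between 177 and 237 (muscle P1 replicate 1 or 2, any muscle P3 library, bone marrow P1 replicate 1 or 2 or P3 replicate 2 or 3), and in periosteum against bone marrow to between 30 and 65 (any bone marrow P1 library, bone marrow P3 replicate 2 or 3) or 153 and 180 (periosteum P2 replicate 2, periosteum P3 replicate 3 or bone marrow P3 replicate 1). Of 90 shares per kb, 7 moved by 1 SD or more with the longest transcript. Libraries with the same replicate number did not deviate together (mean r 0.000242 over 36 pairs of groups, from −0.0592 to 0.0502). The replicate block left 5 members called in muscle against periosteum and changed no member's call.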
